A study of Mus musculus with 35 samples.

Results

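SRSF4 was set against the other members of the SR protein family studied here, SRSF1, SRSF2, SRSF3, SRSF5, SRSF6 and SRSF7, by individual-nucleotide cross-linking and immunoprecipitation (iCLIP). In iCLIP, cells are irradiated at 254 nm so that protein and RNA in direct contact become joined, the protein is purified with its RNA, and the cDNA ends next to the joined base. The libraries were chosen by their titles: 3 libraries of SRSF4-GFP against 25 libraries of the other 6 SR proteins, out of 31 libraries with a file of their own. The 25 were 4 of SRSF1, 5 of SRSF2, 3 of SRSF3, 4 of SRSF5, 3 of SRSF6 and 6 of SRSF7. The remaining 3 libraries were of the export receptor NXF1, and 4 control libraries of GFP with a nuclear localization signal (GFP-NLS) had 1 pooled file that entered no test. All libraries came from P19 cells, a mouse embryonal carcinoma line that was untreated apart from the irradiation. Each line carried its GFP-tagged protein in addition to the untagged gene, on a stably inserted bacterial artificial chromosome (a long piece of mouse genomic DNA) or, for the control, GFP-NLS alone. The lines were clonal, so a protein and the clone that carries it cannot be told apart.

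SR proteins bind RNA through RNA recognition motifs and carry a tail rich in arginine and serine that other splicing factors and kinases contact. They bind exons of pre-mRNA, help the spliceosome to choose splice sites, and several stay on the mRNA during its export and translation. SRSF4 has a pair of RNA recognition motifs and a long arginine- and serine-rich tail, and by sequence it is closest to SRSF5 and SRSF6.

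The values are tags, which are cDNAs counted at single genomic positions. Only positions that passed the authors' density threshold are listed, so the sum over a library falls short of its sequencing depth by an unknown amount, and 0 stands for a place without any listed position. The SRSF4 libraries held 108216, 1266898 and 159383 tags (replicates 1, 2 and 3) at 36948, 760094 and 72945 positions, against 13038 to 4459523 tags in the others, and the control file held 21880 tags. SRSF4 replicate 2 thus holds most SRSF4 tags, and each level below is given per 1000000 listed tags of its library (CPM) so that it counts once. By the run names in the file headers, all 3 SRSF4 libraries were sequenced in the later of 2 years, together with SRSF1, SRSF3, SRSF7 replicates 4 to 6 and NXF1 (the later run), whereas SRSF2, SRSF5, SRSF6 and SRSF7 replicates 1 to 3 came from the earlier run. The headers of SRSF2 replicates 2 and 5 name SRSF1. Both stayed in the group of their titles, and counts of calls that leave them out follow where these changed.

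The cells were checked by genes of their type. Of 12 markers of P19 and other pluripotent cells, such as Sall4 and Lin28a, 9 had enough tags to be tested and none was called. The list summed to 1155, 2650 and 602 CPM in the SRSF4 libraries, against a median of 1168 CPM in the others. Of 12 markers of neural, endodermal, mesodermal and fibroblast cells, such as Tubb3 and Gata4, none reached the filter, and their sums were 27.7, 24.5 and 18.8 CPM in SRSF4 libraries, against at most 135 CPM elsewhere.

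Sequences at the strongest SRSF4 positions of the regions described below are shown first, because the question is where the protein touches RNA. A region is a stretch of positions that the authors had joined into clusters, merged here over all proteins. Each line gives 30 bases of genomic DNA (mm9, read 5′ to 3′ on the transcribed strand), and the capital is the listed cross-link position with the most SRSF4 tags in that region.
Srsf4 coding sequence, chr4:131453686-131453715, plus strand: ctggacggaactgaaGtcaacggcagaaaa
Mecr coding sequence, chr4:131409632-131409661, plus strand: ctgaagaacctggagCtcactgctgtggaa
Setd5 coding sequence, chr6:113068355-113068384, plus strand: agatgtctctgtactTtcctaacgctgagg
Taf9 coding sequence, chr13:101425701-101425730, plus strand: acagaatacagccgaGtcagcaaatgcact
Tpr coding sequence, chr1:152287185-152287214, plus strand: atcttcttctaggatTatgaagaagacgaa
Rai12 3′ UTR, chr11:69781918-69781947, minus strand: atgatgacctagataTttgacagacaaatg
Anp32a 3′ UTR, chr9:62225451-62225480, plus strand: ttgtgatttgactgtTtttacccatatccc
Hdac2 3′ UTR, chr10:36721585-36721614, plus strand: aaattgatgtgttatTatgtcaaaagccgg
Each of these windows occurs once in the mm9 genome on either strand. The marked positions in Setd5, Tpr, Rai12, Anp32a and Hdac2 fall on T (U in RNA), the base that 254-nm light joins most readily, and those in Srsf4, Mecr and Taf9 do not. The tags at a marked position are few. They numbered 25 for Anp32a, 17 for Srsf4 and 7 for Taf9 over the 3 SRSF4 libraries, so that the regions below were read as sums and not position by position. Positions were picked by tag counts not scaled by library, and replicate 2 gave most tags at each, as with 0, 16 and 1 for Srsf4. The 25 other SR libraries together had more tags than SRSF4 at the positions in Tpr (66), Anp32a (80), Rai12 (12) and Hdac2 (18), and fewer at the rest.

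The first comparison was of the tagged gene itself, which checks the labels of the SRSF4 libraries only. Srsf4 had 989, 2203 and 1675 CPM in the SRSF4 libraries, against 0 to 153 CPM in the 25 others, with 0 tags in the control. Every SRSF4 library lay above every other library, and the log2 difference was 5.07 (SE 0.75, limma voom with Benjamini-Hochberg adjustment, adjusted p = 0.00013, lost on log2(CPM + 1) with limma-trend, where adjusted p was 0.29). All 9 tested regions of Srsf4 were called higher, from its 5′ UTR to its 3′ UTR. Regions were tested at 42.1 CPM or more in 3 libraries, and in most of these 9 no other SR library reached that level. They entered the test through the SRSF4 libraries, so the share called was largely set by the filter. The region in the coding sequence printed above had 231, 206 and 220 CPM in SRSF4 libraries, against at most 39.0 CPM elsewhere, and the 3′ UTR (chr4:131457257-131457621) had 185, 365 and 420 CPM, against at most 38.1 CPM.

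The higher counts did not end at the annotated ends of Srsf4. Mecr, which encodes a reductase of mitochondrial fatty acid synthesis and ends 5830 nt before Srsf4 on the same strand, had 471, 1688 and 722 CPM in the SRSF4 libraries, against a median of 4.72 and at most 134 CPM in the others (log2 difference 6.68, SE 0.73, limma voom, adjusted p = 2.2e-07). Its intron region at chr4:131403681-131404890 had 120, 584 and 220 CPM, against at most 1.73 CPM. Gm12992, a noncoding transcript on the opposite strand that overlaps the end of Srsf4, had 296, 164 and 176 CPM in SRSF4 libraries, against at most 65.3 CPM (adjusted p = 0.00013). Those tags lay in an intron within 52 nt, and the window around their strongest position has 7658 exact copies in the genome, so their source is uncertain. Of the other genes within 100000 nt, Ptpru, a receptor tyrosine phosphatase, had 0, 58.4 and 6.27 CPM and was below the filter, and Epb4.1, a protein of the red cell membrane skeleton, had 64.7, 181 and 37.6 CPM, against a median of 62.2 CPM, and was not called (limma voom, adjusted p = 0.76). Gm12978 and Tmem200b had no tags in any library of an SR protein. In 2000-nt bins around the start of Srsf4, all 3 SRSF4 libraries exceeded every other library in 13 bins on its strand, the first starting 26 kb before and the last ending 30 kb after that start, and in 1 bin on the opposite strand. Cells of the SRSF4 line carry Srsf4 on the inserted chromosome as well, so for Srsf4 more RNA and more binding to it cannot be told apart. The ends of the insert are not given in the sources used here, so whether it takes in Mecr was not tested.

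**Figure D1:**
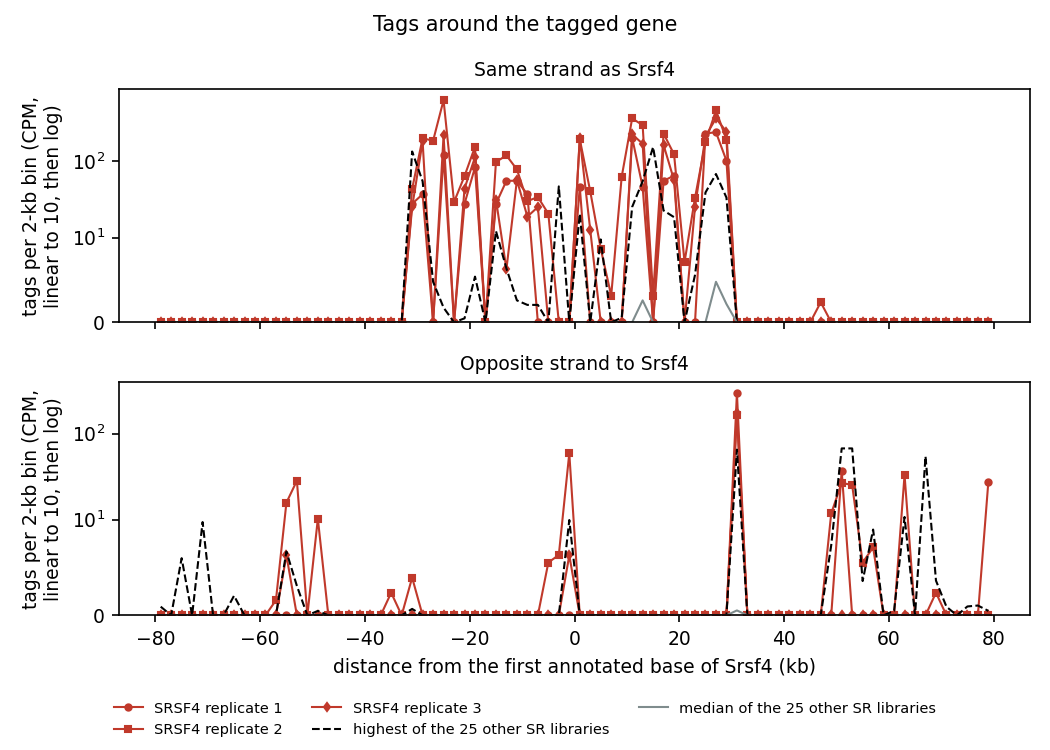
Tags per 2000-nt bin (CPM, linear up to 10 and logarithmic above) against the distance in kb from the start of Srsf4, on its own strand (top) and the opposite strand (bottom). Red lines are the 3 SRSF4 libraries, the dashed line is the highest and the grey line the median of the 25 libraries of the other SR proteins; the SRSF4 libraries stand above the dashed line in 13 bins on the strand of Srsf4, all between -26 and 30 kb.

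Across the transcriptome, of 6649 regions tested, 671 (10.1%) were called at an adjusted p under 0.05: 612 (9.20%) were higher and 59 (0.887%) lower in SRSF4 (limma voom). At an unadjusted p under 0.05 the shares were 18.5% higher and 3.16% lower. The median log2 difference over all tested regions was 0.30, which is the level that single values should be read against. Under trimmed-mean scaling that median was -0.25 and the calls were 96 higher and 19 lower. The filter of 42.1 CPM in 3 libraries can be met by the SRSF4 libraries alone, and with no filter beyond 15 tags the median was -0.30 over 124022 regions, with 141 higher and 3 lower. The counts also turned on single libraries. Without SRSF4 replicate 3 there were 272 calls, without replicate 2 there were 451, none of them lower, and without replicate 1 there were 506. Without SRSF2 replicates 2 and 5 there were 539, 479 higher and 60 lower. Within the later run, with 10 libraries of SRSF1, SRSF3 and SRSF7 as the comparison, there were 729 calls, of which 445 were among the 671. Of the 671 called regions, the direction turned for 7 of the 661 tested when libraries were limited to 50000 to 250000 tags, and for none in the other 15 alternatives. The study calls the libraries of a protein biological replicates and does not say which stem from separate cultures, and the p-values cover the differences among these libraries only.

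A stricter description needs no model. In 56 of the 6649 regions (0.842%) all 3 SRSF4 libraries exceeded all 25 others, 55 of them called. In none did all 3 fall below, but that count was nearly fixed, since it needs a tag in every other library. The smallest of these held 13038 tags, and even a region of mt-Rnr2 with a median of 573 CPM had 2 of them at 0. The count of regions above all others was 657 for the 3 libraries of SRSF3 and 347 for those of SRSF6. Among the 56 were all 9 regions of Srsf4 and 2 of the 3 of Mecr. Most of those 9 passed the filter through the SRSF4 libraries alone. By transcript feature, 11 of 575 tested 3′ UTR regions (1.91%) were among them, as were 14 of 2629 in coding sequence (0.533%).

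In coding sequences, the regions outside the Srsf4 locus with the smallest adjusted p lay in Setd5, Taf9, Tpr and C80913. Setd5, a SET-domain protein of chromatin, had 148, 135 and 226 CPM in SRSF4 libraries, against a median of 0 and at most 93.5 CPM in the others (log2 difference 4.47, SE 0.51, limma voom, adjusted p = 5.7e-07). Taf9, a subunit of the general transcription factor TFIID, had 120, 67.9 and 69.0 CPM, against at most 45.9 CPM (log2 difference 4.26, SE 0.59, adjusted p = 1.8e-05). Neither overlapped any other library, and both calls stayed in every alternative in which they were tested. Tpr, the nucleoporin of the nuclear basket through which mRNA leaves, had 166, 147 and 182 CPM in SRSF4 libraries, against a median of 1.03 and at most 134 CPM (log2 difference 3.74, SE 0.57, adjusted p = 7.1e-05). C80913, which RefSeq names Uri1 and which encodes a prefoldin-like partner of an RNA polymerase subunit, had 83.2, 148 and 163 CPM, against at most 79.6 CPM (log2 difference 3.43, SE 0.54, adjusted p = 0.00012). Of 16 alternatives for Tpr and 15 for C80913, each lost its call only on log2(CPM + 1) with limma-trend, where adjusted p was 0.087 for Tpr and 0.074 for C80913.

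In 3′ UTRs, Rai12, Anp32a and Hdac2 came first. Rai12, a subunit of the Elongator complex that modifies tRNA, had 139, 167 and 207 CPM in SRSF4 libraries, against a median of 0 and at most 78.8 CPM (log2 difference 4.11, SE 0.60, limma voom, adjusted p = 3.9e-05), with no overlap between the groups. Anp32a, an acidic nuclear phosphoprotein that inhibits protein phosphatase 2A, had 157, 252 and 395 CPM, against a median of 6.46 and at most 285 CPM (log2 difference 3.58, SE 0.56, adjusted p = 0.0001, and 0.15 on log2(CPM + 1) with limma-trend). For Hdac2, a class I histone deacetylase, the values were 120, 303 and 458 CPM in SRSF4 libraries, against a median of 0 and at most 132 CPM (log2 difference 4.03, SE 0.65, adjusted p = 0.00014). One library of the others reached the lowest SRSF4 value in each of the last pair. Further 3′ UTRs in which all SRSF4 libraries stood above the rest belonged to Hmgb2, a high-mobility-group DNA-binding protein, at 222, 335 and 326 CPM against at most 156 CPM, and to Eif2s2, the beta subunit of initiation factor eIF2, at 148, 178 and 226 CPM against at most 61.0 CPM. Those of Nap1l1 and Set, both histone chaperones, had 1007, 1234 and 1681 CPM against at most 646 CPM, and 249.5, 305 and 326 CPM against at most 200.2 CPM, with 5 control tags in Set. These 4 regions were named after their values were seen.

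The remaining 3 of the 12 regions named as higher are less sure. Gm12183, a pseudogene on chromosome 11, had 185, 181 and 151 CPM in SRSF4 libraries, against at most 201 CPM, and its window has 2 copies in the genome. A region of 5 nt in an intron of Gm973 had 73.9, 21.3 and 113 CPM, against at most 134 CPM, and lost its call when each position was counted once (limma voom, adjusted p = 0.065). The third is that of Gm12992, described above. Of the 612 regions called higher, 114 were at most 10 nt wide, and 19% held a control tag, against 11.5% of all tested regions. What part such narrow regions and the background have in the calls was not tested. Among the 5887 regions without a control tag, 469 were called higher (7.97%).

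**Figure D2:**
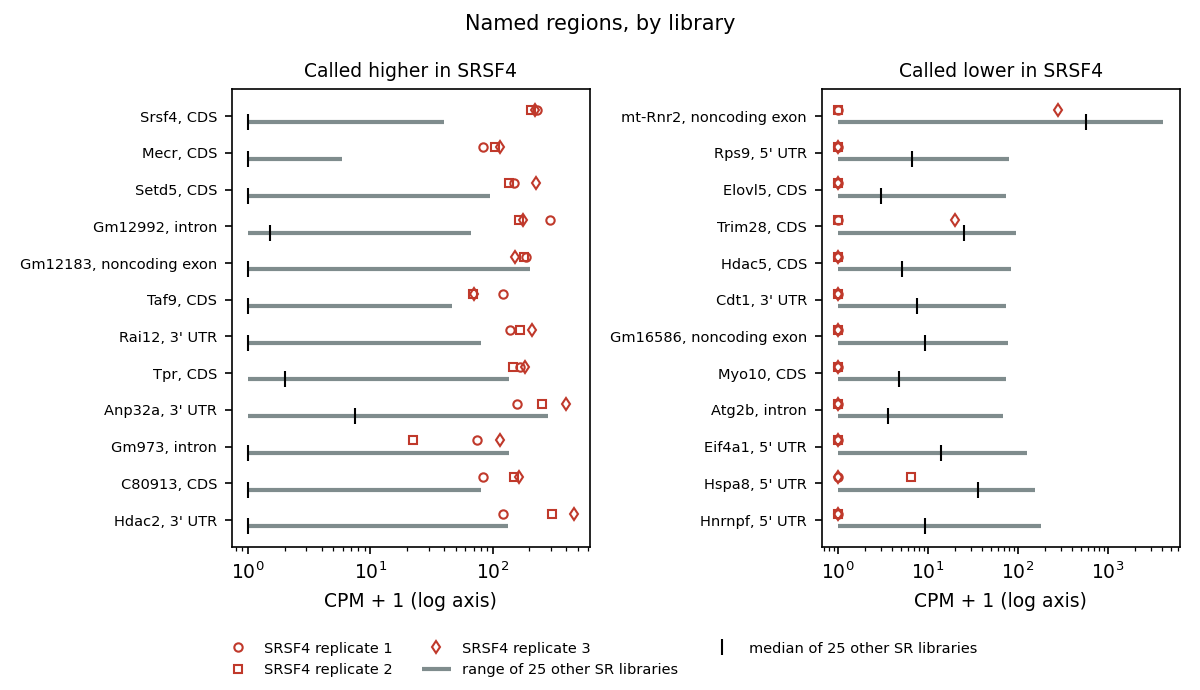
Levels in the 12 named regions called higher (left) and the 12 called lower (right) in SRSF4, as CPM + 1 on a log axis. Red symbols are the 3 SRSF4 libraries, grey bars the range and black ticks the median of the 25 libraries of the other SR proteins; Srsf4, Mecr, Setd5, Taf9, Rai12, Tpr, C80913 and Gm12992 show no overlap, whereas the lower regions lie within the range of the others because other libraries also had 0.

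By mean level, the SR protein nearest to SRSF4 in the named higher regions was usually SRSF6. In 9 of the 12 named higher regions, SRSF6 had the highest mean of the other 6 proteins. In Setd5, SRSF4 averaged 169.6 ± 49.2 CPM (SD, n = 3), against a mean of 81.5 CPM for SRSF6. In Tpr the mean of SRSF4 was 165 ± 17.6 CPM (SD, n = 3), against 115 CPM for SRSF6. Among all 612 regions called higher SRSF6 had the highest mean of the others in 268 (43.8%), against 1952 of the 6649 tested (29.4%), and SRSF1 in 155 (25.3%), against 12.5% of the tested. For the 59 called lower, SRSF3 had the highest mean of the others in 30 (50.8%), against 24.9% of the tested. The contrast of SRSF4 with SRSF6 alone was not tested, and the SRSF6 libraries all came from the earlier run.

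The 59 regions called lower rest on libraries in which no position was listed. In 33 of the 59, none of the SRSF4 libraries had a tag, and no fold change is given for them. Of the 12 named, 4 lie in 5′ UTRs, where 4 of 278 tested regions were called lower (1.44%, beside 0.887% of all regions). They are those of Rps9, a protein of the small ribosomal subunit, and Eif4a1, the helicase that unwinds mRNA for initiation. The others are those of Hspa8, a constitutive chaperone, and Hnrnpf, a splicing repressor and activator that binds G-runs. The Eif4a1 region had 0 CPM in every SRSF4 library, against a median of 13.01 and at most 127 CPM in the others, of which 15 had tags (limma voom, adjusted p = 0.008). In Hspa8 the values were 0, 5.53 and 0 CPM, against a median of 35.03 and at most 155 CPM (adjusted p = 0.0098), and tags were listed in 19 of 25 other libraries. Rps9 and Hnrnpf were at 0 CPM in all 3, against medians of 5.69 and 8.18 CPM. A single tag is 6.27 CPM in SRSF4 replicate 3 and more in replicate 1, which held fewer tags. At medians near that level, 0 in these libraries is a weak limit.
Eif4a1 5′ UTR, chr11:69485799-69485828, minus strand: cactccgccctagatTctaaggatcatgtc
Hspa8 5′ UTR, chr9:40609388-40609417, plus strand: atttgtgtggtctcgTcgtcagcgcagctg
Hnrnpf 5′ UTR, chr6:117856798-117856827, plus strand: accgtcttgcatcctTccggctccgtcgtg
Here the capital is the position with the most tags over the 25 libraries of the other SR proteins, and in all 3 it is a T. It is shown because SRSF4 had few or no tags there, and SRSF4 tags had no part in the choice. At the Hspa8 position SRSF4 had 2 tags and the others 207 tags in 17 libraries.

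Outside 5′ UTRs, the named lower regions lie in mt-Rnr2, the large rRNA of mitochondrial ribosomes, in coding sequences of Elovl5, Trim28, Hdac5 and Myo10, in the 3′ UTR of Cdt1, the licensing factor of DNA replication, in an intron of Atg2b and in Gm16586. The mt-Rnr2 region had 0, 0 and 276 CPM in SRSF4 libraries, against a median of 573 and at most 4132 CPM in the others, and 18 tags in the control (limma voom, adjusted p = 0.0016). Trim28, a corepressor of zinc-finger factors, had 0, 0 and 18.8 CPM, against a median of 24.2 CPM (adjusted p = 0.0045). Each of the other 6 was at 0 CPM in all SRSF4 libraries, against medians between 1.99 and 8.18 CPM. Against such medians, 0 in SRSF4 replicates 1 and 3 is a weak limit, as a single tag there is 6.27 CPM or more. Their calls are fragile. All 12 lost the call without SRSF4 replicate 2, the largest of the 3, and 9 of them also lost it among libraries of 50000 to 250000 tags, where Trim28 turned to a log2 difference of 0.80. The Atg2b window has 212 copies in the genome.

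By transcript feature, the share of tested regions called higher was 14.8% in 3′ UTRs (85 of 575), 11.1% between genes (184 of 1665), 10.5% in introns (70 of 667), 6.88% in coding sequence (181 of 2629) and 3.96% in 5′ UTRs (11 of 278), beside 9.20% of all regions. Called lower were 1 region in 3′ UTRs (0.174%), 4 in 5′ UTRs (1.44%) and 28 in coding sequence (1.07%), beside 0.887% of all regions. The lead of 3′ UTRs over all regions did not hold in every setting. It was 1.22% against 1.44% with trimmed-mean scaling, 6.96% against 9.0% in the later run, 6.43% against 6.78% without SRSF4 replicate 2, and 0.522% against 1.20% on log2(CPM + 1) with limma-trend. Regions in pseudogenes were called higher in 23 of 97 (23.7%) and those in rRNA genes, mostly 5S copies, in 6 of 24 (25%), where near-identical copies make the source uncertain.

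**Figure D3:**
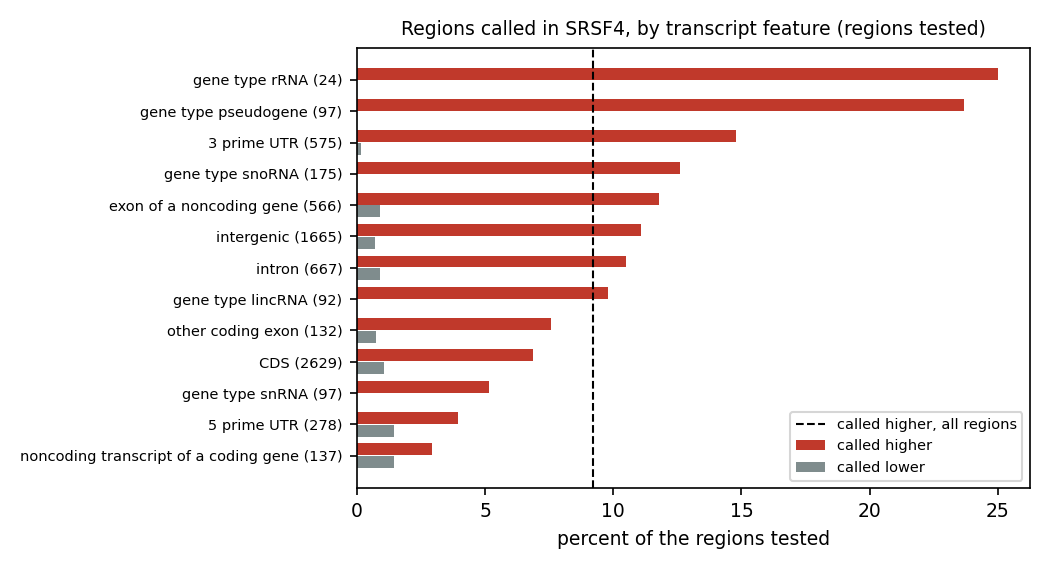
Percent of the tested regions called higher (red) or lower (grey) in SRSF4, by transcript feature or, for exons of noncoding genes, also by gene type; the number tested is in brackets. The dashed line is 9.20%, the share called higher among all 6649 regions; 3′ UTRs stand at 14.8% and 5′ UTRs at 3.96%.

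Small nucleolar RNAs guide the modification of rRNA and are processed from introns of host genes. Of 175 tested regions in them, 22 (12.6%) were called higher and none lower, beside 9.20% and 0.887% of all regions. The share was below that of all regions with trimmed-mean scaling (1.14% against 1.44%), with limma-trend on log2(CPM + 1) (1.14% against 1.20%) and log2(CPM + 10) (2.29% against 2.92%), and without SRSF4 replicate 1 (5.71% against 7.17%) or replicate 3 (2.29% against 3.79%). Snord88a had 157, 133 and 245 CPM in SRSF4 libraries, against at most 89.3 CPM in the others (log2 difference 4.67, SE 0.86, limma voom, adjusted p = 0.00073), and Snord21 had 194, 194 and 502 CPM, against at most 95.8 CPM (adjusted p = 0.0021). Neither overlapped with the other SR proteins. The NXF1 libraries reached 110 CPM on Snord88a, below all SRSF4 libraries, and 198 CPM on Snord21, above 2 of the 3. Over all genes of small nucleolar RNAs, NXF1 averaged 10.0% of tags, against 3.96%, 2.13% and 5.27% in the SRSF4 libraries. Snord91a had 1044, 519 and 1550 CPM, against at most 656 CPM. Of 35 tested regions in host genes of such RNAs, 3 were called higher, all in Snhg5, and none lower.

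Transcripts of replication-dependent histone genes, which end in a stem-loop rather than a poly(A) tail and have no introns, carried many SRSF4 tags. Summed over 67 such genes, the SRSF4 libraries had 45132, 21032 and 32996 CPM, against a median of 12724 and at most 34791 CPM in the other 25, of which 4 reached the lowest SRSF4 value. The NXF1 libraries had 18809 to 30406 CPM, within the SRSF4 range or just below it, and the control had 3839 CPM. Of the 53 histone genes tested, 2 were called higher and none lower, beside 0.395% and 0.0329% of all 6073 genes. At an unadjusted p under 0.05 there were 23 higher and none lower, beside 4.56% and 4.40% of all genes. The median log2 difference was 1.36, beside -0.43 over all genes. The median stayed between 0.89 and 2.43 in all 16 alternatives, with the lowest value in the later run, in which none of the histone genes was called.

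The H1 linker histones stood out most within the list. Their summed level was 10100, 5268 and 8696 CPM in SRSF4 libraries, against a median of 1496 and at most 4597 CPM, so that none of the 25 libraries reached the lowest of SRSF4. All 5 tested H1 genes had an unadjusted p under 0.05. Hist1h1d had 4131, 1845 and 4166 CPM in its coding region at chr13:23647366-23647662, against a median of 217 and at most 1449 CPM (log2 difference 3.53, SE 0.80, limma voom, adjusted p = 0.0037). Hist1h1c had 1876, 943 and 1851 CPM at chr13:23831167-23831390, against a median of 262 and at most 684 CPM (adjusted p = 0.02, and 0.056 in the later run). In the core histones the pattern was graded. Genes of H2B had a median log2 difference of 2.18 and those of H2A of 1.66, against 1.27 for H3 and 0.40 for H4, where 15 of 25 libraries reached the lowest SRSF4 sum. By regions, 20 of 72 in histone genes (27.8%) were called higher and none lower, but 9 of 72 (12.5%) in the later run, beside 9.0% of all regions there, and 3 of 72 (4.17%) without SRSF4 replicate 1, beside 7.17%. With trimmed-mean scaling it was 1 of 72 (1.39%), beside 1.44%, and with limma-trend none on log2(CPM + 1), beside 1.20%, and 2.78% on log2(CPM + 10), beside 2.92%. Copies of core histone genes are nearly identical, so values of single members, such as Hist1h2af, the second called gene, are uncertain.

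**Figure D4:**
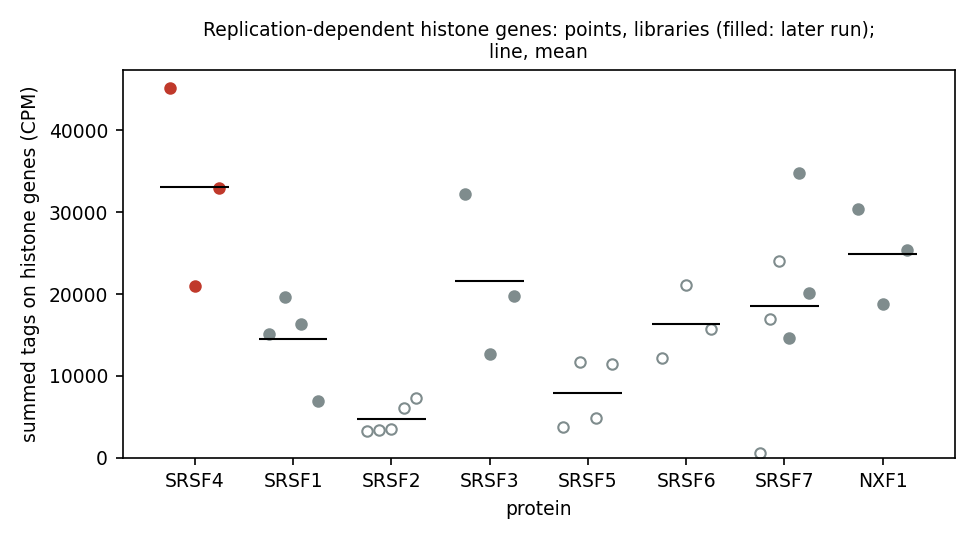
Summed CPM on 67 replication-dependent histone genes by library (points, filled for the later run) and protein mean (line). SRSF4 stands at 45132, 21032 and 32996 CPM; 1 library each of SRSF3 and SRSF6 and 2 libraries of SRSF7 reach the lowest of these, as do 2 of NXF1.

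At the level of whole genes few differences passed. Of 6073 genes, 26 (0.428%) were called, 24 higher and 2 lower, while 277 higher (4.56%) and 267 lower (4.40%) had an unadjusted p under 0.05. Without SRSF4 replicate 1 there were 3 calls, without replicate 2 there were 17, without replicate 3 there were 4, and without SRSF2 replicates 2 and 5 there were 16. Beside Mecr, Srsf4, Gm12992 and Taf9, the named genes were Lingo2, a neuronal membrane protein, with 92.4, 76.6 and 75.3 CPM in SRSF4 libraries, against at most 65.9 CPM, Awat2, an acyltransferase that makes wax esters, with 628, 161 and 772 CPM, against at most 671 CPM, Snord88a and the 5S rRNA copies 5S_rRNA, n-R5s151 and n-R5s210. The called tags of Lingo2 lay within 4 nt of an intron, and both Lingo2 and Awat2 lost their calls when each position was counted once (adjusted p = 0.51 and 0.43). The genes called lower were Mtap7d3, a microtubule-associated protein, at 0 CPM in all SRSF4 libraries, against a median of 12.2 CPM, and Alg6, a glucosyltransferase of N-glycosylation, at 0, 0 and 6.27 CPM, against a median of 28.6 CPM. Both, and the Snord88a gene, lost the call when any 1 of the SRSF4 libraries was left out. For Snord88a the adjusted p was then 0.053 to 0.26. The n-R5s151 copy had 83.2, 51.3 and 276 CPM in SRSF4 libraries, below the 457 CPM (10 tags) of the control. The 5S_rRNA copy had 55.4, 8.68 and 62.7 CPM in SRSF4 libraries, and n-R5s210 had 102, 7.89 and 56.5 CPM. For both, SRSF7 replicate 5 had 785 CPM, and the call was lost in the later run (limma voom, adjusted p = 0.098 and 0.12).

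Genes that encode RNA-binding proteins were looked at as lists, whose members were chosen by name or function. Of 11 SR protein genes 10 were tested and only Srsf4 was called. None was called among 16 SR-related and speckle genes, 25 tested core spliceosome genes, 13 tested exon junction and decay genes, 12 tested export genes, 15 tested 3′ end processing genes, 26 hnRNP genes and 52 tested translation factors, whose median log2 differences ran between -1.04 and 0.33, beside -0.43 for all genes (limma voom). At an unadjusted p under 0.05, 4 of them were higher and 3 lower, beside 4.56% higher and 4.40% lower of all 6073 genes. By regions, the lists can be read beside 9.20% higher and 0.887% lower over all regions. In core spliceosome genes none of 50 was higher and 1, in Prpf8, was lower. In hnRNP genes 11 of 124 were higher, 4 of them in Hnrnpu, a scaffold protein of the nucleus, and 3 were lower, among them the 5′ UTR region of Hnrnpf described above. In SR-related genes 5 of 95 were higher, in Acin1, Bclaf1, Rbm25, Rbm39 and Srrm1, and none was lower. In genes named as translation factors 15 of 124 were higher and 1 lower. The higher ones included 6 regions of Eif2s2 and a coding region of Eif3a, the largest subunit of eIF3, with 582, 578 and 571 CPM in SRSF4 libraries, against a median of 17.5 and at most 1025 CPM (log2 difference 4.06, SE 0.78, limma voom, adjusted p = 0.001). In genes named Rpl or Rps, a prefix that also takes in S6 kinases, 12 of 95 were higher and 3 lower. Rps20 had 92.4, 186 and 314 CPM in the region called higher, against at most 201 CPM. Rpl8 was at 0 CPM in the region called lower, against a median of 8.03 CPM, where a single tag in SRSF4 replicate 3 is 6.27 CPM. Mitochondrial mRNAs had a median log2 difference of -1.82 over 7 tested genes with no call, 2 of them lower at an unadjusted p under 0.05. In the later run all 7 were lower at that level, with a median of -3.36 and no call. Summed over the list of mitochondrial mRNAs, SRSF3 averaged 11380 CPM, SRSF7 1638 CPM and SRSF6 696 CPM. SRSF4 averaged 221 CPM, near SRSF1 at 211 CPM and above SRSF5 at 109 CPM and SRSF2 at 70.3 CPM. Of 19 regions in these genes 2 were called lower, in mt-Cytb and mt-Nd1, and none higher, and both calls were lost when any 1 of the SRSF4 libraries was left out.

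The distribution of tags over transcripts was compared as shares of each library, with an exact permutation test over all 3276 ways to choose 3 of 28 libraries, two-sided, where the smallest p is 0.00031. The test treats libraries of 1 protein as exchangeable with those of another. Of 11 shares by transcript region, 6 by position within exons and introns, and 1 of the cross-linked base, each adjusted within its family, none passed. Coding sequence held 11.5%, 40.4% and 21.1% of SRSF4 tags, against 25.8% ± 17.5 (SD, n = 25) in the others, and the 3 SRSF4 libraries spread over most of that range. Shares in 3′ UTRs were 5.34%, 13.1% and 8.74%, against 5.50% ± 3.00 (SD, n = 25), second to SRSF3 among the 7 protein means (exact permutation p = 0.063, adjusted p = 0.68).

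SRSF4 libraries agreed closely with each other in a few shares. Introns held 10.6%, 10.7% and 9.88% of SRSF4 tags, the lowest of the 7 protein means, against 15.4% ± 6.52 (SD, n = 25) in the others (exact permutation p = 0.19, adjusted p = 0.68). Next in order, SRSF5 at 8.90% to 12.5% and SRSF6 at 9.18% to 12.5% enclosed all 3 SRSF4 values. The last-exon share was taken of the tags in first, internal and last exons only, not of all tags (4153 of 15294 in SRSF4 replicate 1). It was 27.2%, 28.8% and 30.2% in SRSF4 libraries, the highest mean, against 22.2% ± 7.08 (SD, n = 25) in the others. Of the 25 libraries, 19 lay below all 3 (exact permutation p = 0.13, and p = 0.045 among the libraries of the later run, adjusted p = 0.50). Next in order were SRSF3 at 27.0% to 29.6%, which overlapped SRSF4, and SRSF2 at a mean of 24.6%. Outside the SR proteins the last-exon share was higher than in any SRSF4 library, at 38.3% in the control and a mean of 47.4% in NXF1. In internal exons, the first 50 nt held 42.7%, 42.7% and 42.9% and the last 50 nt 18.8%, 18.8% and 19.3% of SRSF4 tags, against 41.0% ± 2.81 and 21.7% ± 4.55 in the others (SD, n = 25), so that tags leaned to the 3′ splice site side for SRSF4 as for the rest (exact permutation p = 0.31 and p = 0.32). In the control the first 50 nt held 55.4% and the last 50 nt 20.8%. The last 100 nt of transcripts held 34.2%, 17.2% and 24.5% of the 3′ UTR tags counted, against 16.4% ± 8.46 (exact permutation p = 0.091, n = 25 others, adjusted p = 0.48).

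**Figure D5:**
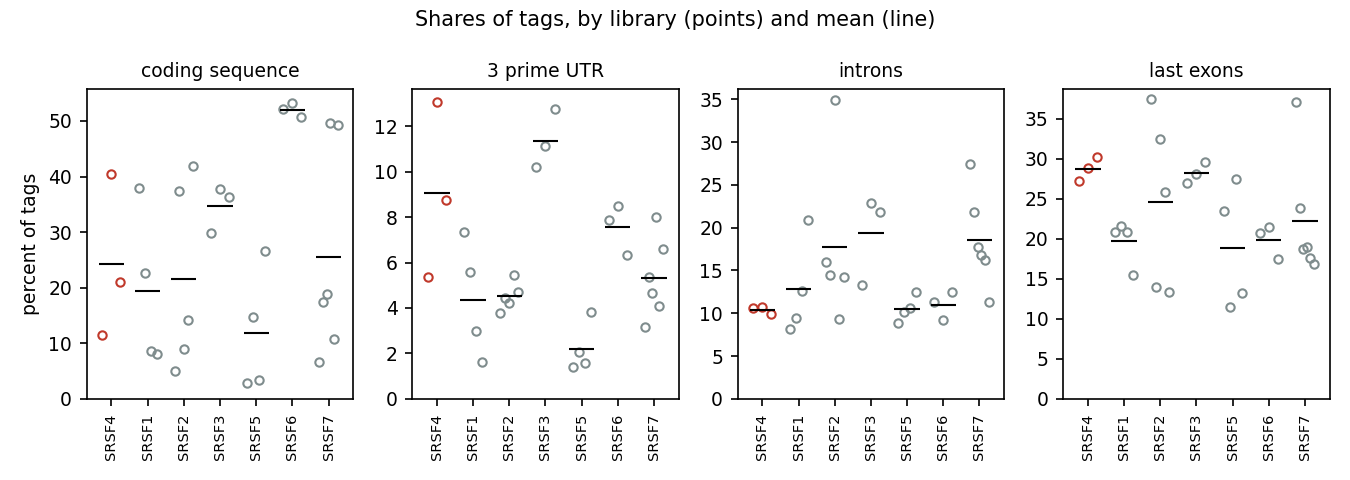
Percent of tags in coding sequence, 3′ UTRs, introns and last exons by library (points) and protein mean (line), SRSF4 in red. The last-exon panel gives a percent of the tags in first, internal and last exons only. The SRSF4 points spread between 11.5% and 40.4% in coding sequence but lie within 9.88% to 10.7% in introns and 27.2% to 30.2% in last exons; other libraries overlap them in every panel.

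Sequence at the cross-link was compared as the log2 frequency of each 5-mer within 15 nt of listed positions over its frequency 50 to 80 nt away. No 5-mer was called for SRSF4 against the others (limma with trend, smallest adjusted p = 0.38), and 30 had an unadjusted p under 0.05. The smallest p belonged to AGATG, with 0.41, 0.41 and 0.52 in SRSF4 libraries, against a median of 0.06 and at most 0.48 in the others (log2 difference 0.42, SE 0.10, limma, adjusted p = 0.38). GATGT and GATGA, which overlap it, followed with log2 differences of 0.36 and 0.33. ATCGC was lowest relative to the others, at -0.54 (adjusted p = 0.73). Within the later run, an alternative chosen after the data were seen, GATGT alone was called, at 0.45 (SE 0.06, limma, adjusted p = 0.0041). That run holds no SRSF6 library. SRSF6 averaged 0.42 for AGATG and 0.39 for GATGT, close to the SRSF4 means of 0.45 and 0.45. For GATGA, SRSF1 averaged 0.73 and SRSF4 0.71. T stood at 40.02%, 44.4% and 41.9% of SRSF4 positions, against 45.4% ± 3.86 (SD, n = 25) (exact permutation p = 0.16).

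The libraries were also compared as a whole, by Spearman correlation of log2(CPM + 1) over the tested regions. These values describe pairs of libraries over regions they share, and depth differs between them. SRSF4 pairs had 0.49 to 0.66. SRSF4 replicates 1 and 3 were closest to another SRSF4 library, but replicate 2, the largest, was closest to SRSF6, at 0.72 to 0.74 with its 3 libraries. Replicates 1 and 3 had lower values with SRSF6, at means of 0.27 and 0.43. Their highest mean outside SRSF4 was with NXF1, at 0.47 and 0.49, followed by SRSF1, at 0.44 and 0.44. Their lowest mean was with SRSF3, at 0.16 and 0.24, and that of replicate 2 was with SRSF7, at 0.29. For replicate 2 the SRSF7 values ran between 0.06, with SRSF7 replicate 5 (16556 tags), and 0.60, with SRSF7 replicate 4 (4459523 tags). Its SRSF3 values ran between 0.31 and 0.39.

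The deposited clusters of SRSF4 fell in 119766 merged regions, and the overlap with other proteins is given as a share of each list because the lists differ in size. SRSF6 clusters lay in 57.1% of the SRSF4 regions, which was 49.7% of the SRSF6 regions. For SRSF1 the shares were 43.7% of the SRSF4 and 59.3% of the SRSF1 regions, and for SRSF3 48.5% and 36.1%. Clusters of none of the other 6 proteins lay in 20.04% of the SRSF4 regions and clusters of all 6 in 18.4%. The cluster files of SRSF2, SRSF3 and SRSF6 each came from 1 library, so these shares move with how much was called in each.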

How the data were processed

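The authors deposited, for each library, signed counts of cDNA tags at single positions, with the strand as the sign and only positions listed that passed a false discovery rate of 0.05 (100 permutations, neighbourhood of 15 nt, mm9). CASAVA 1.4 and mm9 are named in the submitters' processing notes. The read aligner was not given in the sources used here. The deposited value was read as its size, and totals of listed tags ran between 13038 and 4459523 with a median of 237488. Depth before that threshold is unknown.

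Deposited clusters were merged within 30 nt, tags were summed per region and per gene on the annotated strand, and features with at least 42.1 CPM (10 tags in the median library) in 3 libraries and 15 tags in all were kept. SRSF4 was set against the equal-weight mean of the other 6 proteins with limma 3.58.1 voom in R 4.3.3, in a fit of 31 libraries that included NXF1, with Benjamini-Hochberg adjustment over all features and a threshold of 0.05. A log2 difference depends on voom's offset where many libraries are at 0. Shares were tested by exact permutation (Python 3.11.15, numpy 2.4.6, scipy 1.17.1), and 5-mers by limma on log2 ratios with a pseudocount of 1. Scripts were tested on simulated data.

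Named regions were the 12 with the smallest adjusted p in each direction, 1 a gene, called, inside 1 gene and with all SRSF4 libraries on 1 side of the other median. Named genes were up to 10 by the same rule, with Srsf4, neighbours within 100000 nt and called list members. The members and lists were chosen with earlier results of these data known. SRSF4 libraries differed beyond counting noise (chi-square 10.6 to 37.9 per region), so none was a copy. In the control file 3 tags are 137 CPM, so a control value of 0 is a weak limit. Alternatives were other scalings, filters and offsets, leaving out libraries, and the later run alone.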

Additional observations from a re-analysis of the deposited data

Results flagged for a closer look

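Of 76 groups of 4 to 10 libraries looked at for a library far from the rest, 3 held one, where chance gives about 1 in 20 groups. SRSF2 replicate 3 had 34.9% of its tags in introns, and the nearest SRSF2 library had 16.0%. SRSF1 replicate 4 had 15.5% of exonic tags in last exons, and the nearest SRSF1 library had 20.8%. SRSF7 replicate 1 had 37.1% in last exons, and the nearest SRSF7 library had 23.9%. Groups of 3, SRSF4 among them, were not looked at in this way.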

How the results depend on the processing

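The 671 regions called became 115 with trimmed-mean scaling, 1107 with totals over coding genes, 81 on log2(CPM + 1) and 195 on log2(CPM + 10) with limma-trend, 144 with no filter beyond 15 tags and 385 with at least 25 tags in the median library. Leaving out 1 SRSF4 library gave 272 to 506. The 26 genes called became 72 with trimmed-mean scaling, 193 with coding totals, 3 on log2(CPM + 1), 11 on log2(CPM + 10), 4 with no filter beyond 15 tags, 77 with positions counted once, 16 without SRSF2 replicates 2 and 5, 193 among libraries of 50000 to 250000 tags, and 3 to 17 without 1 SRSF4 library. With the replicate number as a block, 465 regions, 12 genes and 0 5-mers were called. Nothing in the labels ties equal numbers together: same-numbered libraries correlated between -0.37 and 0.41 (mean 0.07, 6 of 18 over 0.1), against a mean of -0.02 for other pairs, and the SRSF4 libraries 1, 2 and 3 correlated best with SRSF3 replicate 1, SRSF7 replicate 4 and SRSF1 replicate 2. In the later run, chosen after the data were seen, 1 5-mer was called. Differences in shares, SRSF4 minus the others in percentage points and none past the threshold, turned sign as follows. Coding sequence was 3.30 with positions counted once, 4.77 among libraries of 50000 to 250000 tags and -9.52 to 4.93 without 1 SRSF4 library. Exons of noncoding genes were -1.85 in that range of tags and -1.52 to 3.41 without 1 library. Other coding exons were 0.096 with positions counted once, 0.20 without SRSF2 replicates 2 and 5, 0.25 in that range of tags and -0.82 to 0.75 without 1 library. Intergenic positions were -2.12 with positions counted once, -4.33 in that range of tags and -4.92 to 11.4 without 1 library. Internal exons were 1.96 in that range of tags. Intron starts were -0.27 and intron ends -1.81 in the later run, and -1.11 to 2.53 and -0.37 to 2.35 without 1 library. Positions after the stop codon were -0.41 to 14.6 without 1 library, and exon starts were 2.01 against the mean of the 6 protein means. The Trim28 region turned to 0.80 in that range of tags, and the 5-mer ACCGT to 0.20 when positions were weighted by tags. The cause of these changes was not tested. Of the 59 lower calls, 33 had no SRSF4 tag.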

Other observations

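Intergenic tags were searched for the B box consensus, an internal promoter element of tRNA genes that repeats derived from tRNA also carry. The search was chosen after the data were seen, and matches were not tied to annotated tRNA genes. The B box consensus lay within 75 nt of 15.3%, 12.6% and 15.01% of intergenic tags in SRSF4 libraries, against 3.06% to 35.4% with a median of 11.8% in the 25 others and 5.98% in the control. With positions moved by 1000 nt the share was at most 0.725% in any library. The highest protein mean was that of SRSF5, at 25.8%, and SRSF4 averaged 14.3%.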
